A study of Mus musculus with 24 samples.

Results

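Interferon-inducible genes are described here in mouse livers labelled as lacking the kinase JNK1, the kinases JNK1 and JNK2 or the kinase regulator NEMO, alone or together. The members are 53 listed genes, chosen by name. Of these, 47 had a probe set with 1 gene symbol on the array and were measured, among 18820 genes so measured in all. Gbp6, Igtp, Irgm2, Parp9 and Dtx3l lay only on probe sets with several symbols and Ifi44 was not analysed here, so that these 6 have no values below. The Oas and Ifit families, which stand for the type I response, had 8 of 8 listed members measured. The Gbp and Irg GTPases, which stand for the interferon gamma response, had 5 of 8, namely Gbp2, Gbp3, Gbp7, Iigp1 and Irgm1.

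The study profiled 24 livers on an Affymetrix whole-transcript array, 3 livers in each of 8 groups. NEMO/JNKΔhepa triple knockout livers at 52 weeks were set against livers labelled control at 52 weeks, both untreated. JNKΔhepa double knockout livers were set against livers labelled control after 40 days of diethylnitrosamine (DEN), a liver carcinogen, and at day 28 of bile duct ligation (BDL), a surgical model of cholestasis. NEMO/JNK1Δhepa double knockout livers were set against NEMO knockout livers at 8 weeks, again untreated. Per the labels, Alb-Cre, active in hepatocytes, was used on a C57BL/6 background, Jnk2 was deficient in the whole body (Jnk1LoxP/LoxP/Jnk2−/−), and NEMOΔhepa and NEMOf/f mice served as controls. Each liver carries its own mouse identifier. Ages are stated for the untreated mice alone.

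Interferons are secreted alarm signals. Type I interferons (alpha and beta) bind Ifnar1 and Ifnar2 and act through Stat2 and Irf9 on the interferon-stimulated response element (ISRE). Interferon gamma, made mainly by T and NK cells, binds Ifngr1 and Ifngr2 and acts through the gamma-activated site (GAS) and through Irf1. Many target genes answer to both. In liver, hepatocytes, Kupffer cells and infiltrating leukocytes all respond.

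Promoters of 6 measured members, a pair from each class with a motif match and the smallest p at 52 weeks, are shown because they carry the elements through which these pathways are known to act. Each window runs from 250 bases before to 50 bases after the RefSeq transcription start, 300 bases in the direction of the gene (GRCm38.p6). They are Oas3 (chr5:120777610-120777909, minus strand), Oas1a (chr5:120907476-120907775, minus), Gbp2 (chr3:142620413-142620712, plus), Gbp3 (chr3:142559794-142560093, plus), Phf11a (chr14:59297473-59297772, minus) and Trim30a (chr7:104446076-104446375, minus). Capitals mark matches to GAAA, any 2 bases, GAAA (ISRE) or to TTC, any 3 bases, GAA (GAS), each searched on both strands with overlaps counted.
Oas3: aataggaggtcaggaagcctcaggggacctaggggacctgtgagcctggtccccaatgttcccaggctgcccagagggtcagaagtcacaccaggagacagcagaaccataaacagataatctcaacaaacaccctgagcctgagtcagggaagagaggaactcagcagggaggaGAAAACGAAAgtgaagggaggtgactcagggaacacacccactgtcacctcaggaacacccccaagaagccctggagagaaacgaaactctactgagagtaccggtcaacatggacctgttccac
Oas1a: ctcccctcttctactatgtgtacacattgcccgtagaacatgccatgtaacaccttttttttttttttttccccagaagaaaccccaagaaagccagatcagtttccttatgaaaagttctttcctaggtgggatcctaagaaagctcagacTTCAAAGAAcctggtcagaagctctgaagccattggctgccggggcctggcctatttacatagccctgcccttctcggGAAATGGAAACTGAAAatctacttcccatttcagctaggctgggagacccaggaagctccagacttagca
Gbp2: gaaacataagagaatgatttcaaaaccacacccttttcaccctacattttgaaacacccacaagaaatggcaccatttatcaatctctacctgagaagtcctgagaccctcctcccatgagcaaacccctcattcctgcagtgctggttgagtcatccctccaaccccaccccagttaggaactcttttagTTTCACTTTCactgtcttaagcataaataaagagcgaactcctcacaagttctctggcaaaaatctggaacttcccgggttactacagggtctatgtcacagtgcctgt
Gbp3: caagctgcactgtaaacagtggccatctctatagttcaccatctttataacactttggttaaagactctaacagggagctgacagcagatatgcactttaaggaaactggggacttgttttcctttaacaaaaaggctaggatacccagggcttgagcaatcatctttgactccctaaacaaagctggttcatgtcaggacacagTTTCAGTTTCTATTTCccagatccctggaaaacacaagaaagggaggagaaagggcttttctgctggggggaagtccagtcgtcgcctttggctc
Phf11a: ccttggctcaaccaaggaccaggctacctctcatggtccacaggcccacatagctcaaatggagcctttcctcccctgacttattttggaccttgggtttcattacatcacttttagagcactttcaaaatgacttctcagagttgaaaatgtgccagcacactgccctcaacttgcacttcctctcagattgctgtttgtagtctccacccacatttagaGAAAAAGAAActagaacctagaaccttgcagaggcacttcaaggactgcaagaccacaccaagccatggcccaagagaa
Trim30a: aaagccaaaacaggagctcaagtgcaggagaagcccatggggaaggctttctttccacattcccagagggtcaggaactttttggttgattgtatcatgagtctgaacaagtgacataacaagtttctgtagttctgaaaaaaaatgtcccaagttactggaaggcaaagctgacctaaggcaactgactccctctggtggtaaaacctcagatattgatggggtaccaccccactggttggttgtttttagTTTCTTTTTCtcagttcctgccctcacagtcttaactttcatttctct
The Oas3 match began 75 bases before the start. Oas1a held a pair of overlapping ISRE matches, beginning 20 and 14 bases before the start, and the only GAS match shown, at 98 bases. Gbp2 had 1 match on the opposite strand at 59 bases, and Gbp3 overlapping matches there at 45 and 39 bases. The ISRE letters were found in 42.9% of the 49 windows of the 41 listed genes with a RefSeq promoter, and in 3.44% of all 32851 windows. The GAS letters were found in 26.5% of the members' windows and 8.3% of all windows. By class, 4 of 7 Oas and Ifit genes and 6 of 6 Gbp and Irg genes held the ISRE letters, so that this motif did not separate the classes. A match describes the letters and is no evidence of binding.

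Values are log2 expression levels, normalised by the authors with RMA, so that a difference of 1 is a doubling. Arrays of 1 group correlated with r between 0.966 and 0.987. Mapk8 (JNK1) was lower in livers labelled as JNK or JNK1 knockouts, at 5.58 to 5.78 in NEMO/JNK knockouts against 6.33 to 6.69 in livers labelled control at 52 weeks, and Ikbkg (NEMO) was 6.43 to 6.47 against 7.00 to 7.48. Mapk9 (JNK2), by contrast, was near 3 in all 52-week, DEN and BDL livers (2.82 to 3.51), those labelled control included, and 7.99 to 8.53 at 8 weeks. The Mapk9 values therefore do not separate the JNK knockout livers from those labelled control, whereas Mapk8 did so at 52 weeks, after DEN and after BDL. At 8 weeks Ikbkg was 6.76 to 7.02 in livers labelled NEMO/JNK1 and 6.80 to 7.26 in livers labelled NEMO, close to the 6.82 to 7.48 of DEN livers labelled control, so the 8-week groups are given by label only. The hepatocyte markers, such as Alb and Apoa1, averaged 12.12 to 12.55 in every liver.

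The members varied more between groups than most genes did. The highest minus the lowest group mean had a median of 1.25 log2 units over the 47 members and 0.47 over all genes. The JNK knockouts after DEN had the highest mean for 28 of 47 members (7.529% of all genes), and the NEMO/JNK1 knockouts at 8 weeks for 12. Livers labelled control at 52 weeks had the lowest mean for 27 members (19.58% of all genes), and livers labelled control after BDL for 14. Stat2, the type I signal transducer, had the narrowest range, with group means of 7.84 to 8.23. Ifitm3, a membrane protein that blocks virus entry, had the highest level on average (11.59) and also moved little, from 11.39 to 11.86. Ifit1, which binds foreign RNA, ranged from 5.62 in BDL livers labelled control to 8.13 in JNK knockouts after DEN, and its partner Ifit3 from 6.18 to 8.17 in the same groups.

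Members differed in the group where they peaked. Usp18, Irf7 and Isg15 were highest in JNK knockouts after DEN, with group means of 8.11, 9.20 and 6.65. Usp18 and Irf7 were lowest in livers labelled control at 52 weeks (6.25 and 7.57), and Isg15 in those after BDL (4.996). Gbp2, Oas2 and Mx1 were instead highest in NEMO/JNK1 livers at 8 weeks (7.17, 6.63 and 4.91) and lowest in livers labelled control at 52 weeks (5.45, 4.94 and 3.75). Gbp3, Tap1 and Irgm1 had their highest means after DEN in JNK knockouts (7.41, 8.12 and 8.60), and Psmb8 and Irf1 in NEMO/JNK1 livers at 8 weeks (8.71 and 7.69). Several neighbours in these orders lay within the spread of their livers: Irf7 averaged 9.20 ± 0.55 in JNK knockouts after DEN and 9.08 ± 0.23 in NEMO/JNK knockouts at 52 weeks (SD, n = 3 each).

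**Figure D1:**
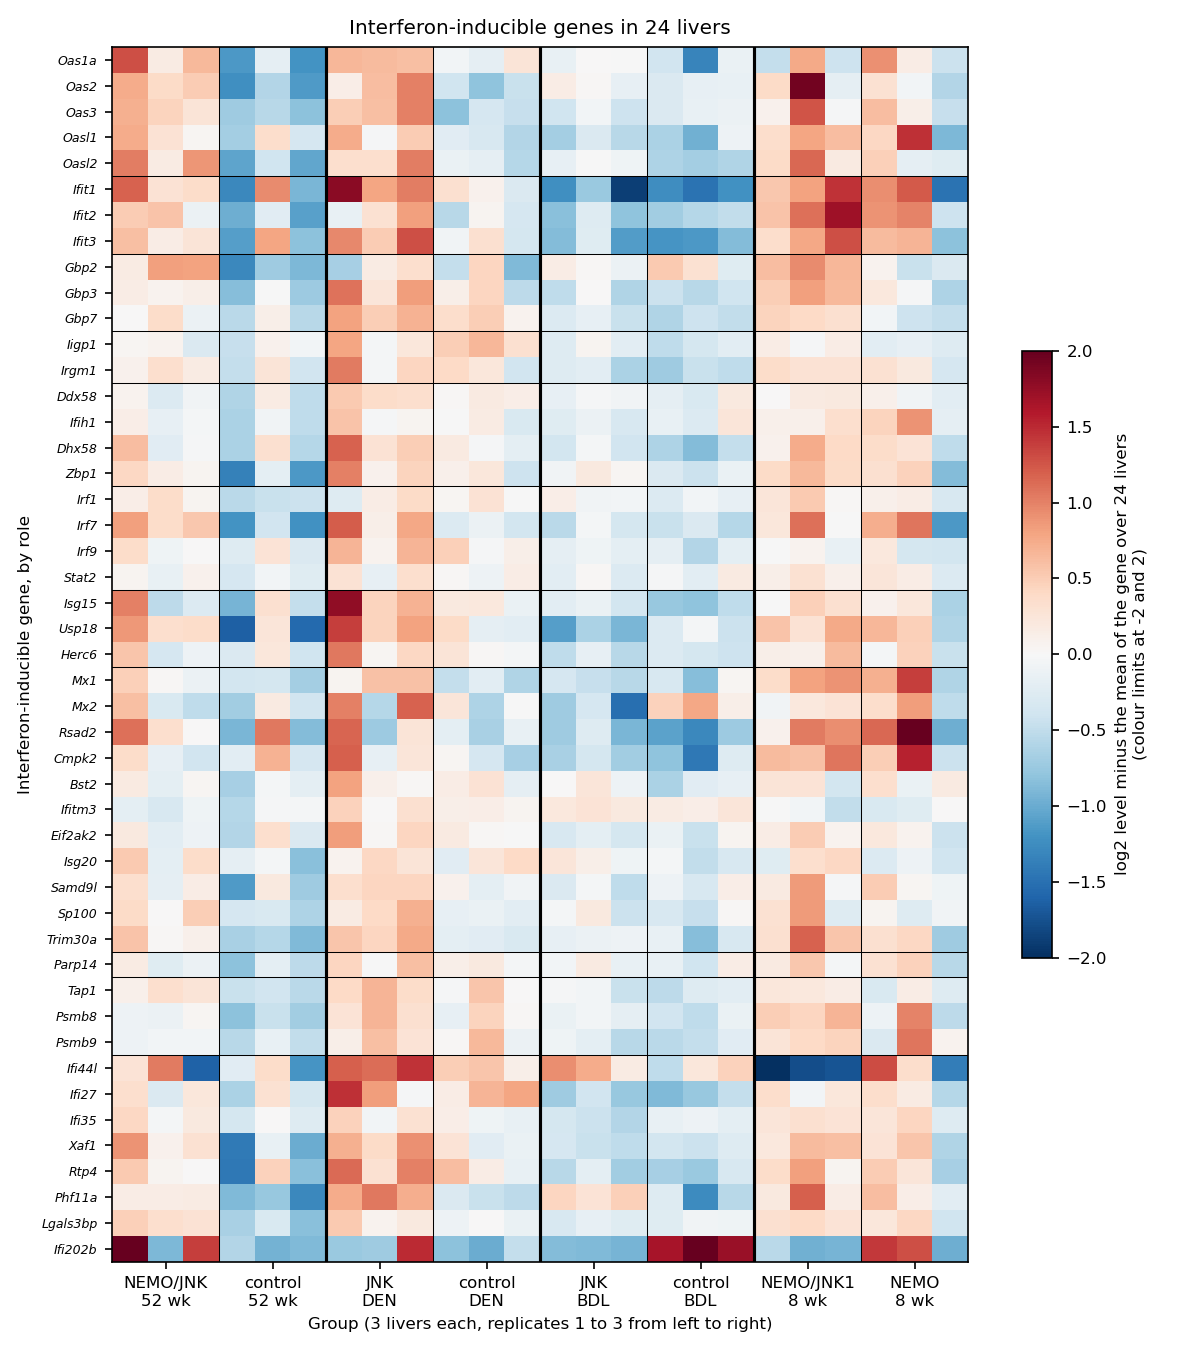
Heat map of the 47 measured genes (rows, by role) in the 24 livers (columns, replicates 1 to 3 from left to right in each group); colour is the log2 level minus the mean of the gene over all livers. Rows are mostly red in the JNK livers after DEN (28 of 47 genes have their highest group mean there) and blue in 2 of the 3 control livers at 52 weeks, with replicate 2 of that group highest for 45 of 47 genes.

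At 52 weeks 18 of 47 members rose in NEMO/JNK knockout livers over livers labelled control and 0 fell, at a limma adjusted p under 0.05 over all genes. The background was large: 13.6% of all genes were called higher and 7.9% lower. The members' median log2 difference was 0.60, against −0.05 over all genes, and 46 of 47 differences were positive (44.7% of all genes). All 3 knockout livers stood above all 3 control livers for 20 members (20.9% of all genes). None stood below (20.3%), and 0 members were lower at an unadjusted p under 0.05 (15.9% of all genes).

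The oligoadenylate synthetases, which sense double-stranded RNA and activate RNase L, led the rise, with 4 of 5 called. Oas2 was at 6.67, 6.31 and 6.43 in knockout livers, against 4.69, 5.34 and 4.80 in livers labelled control. The groups did not overlap, and Oas2 was 2.89-fold higher (log2 difference 1.53, SE 0.19, limma adjusted p = 0.000857). Oas3 (1.17), Oas1a (1.55) and Oasl2 (1.53), a ubiquitin-like family member, rose as well, while Oasl1 differed by 0.58 and was not called. Of the Ifit family, Ifit2 rose by 1.08 (adjusted p = 0.0183). Ifit1 was at 8.10, 7.22 and 7.29 in knockouts, against 5.64, 7.88 and 6.01 in livers labelled control. Control replicate 2 lay above a pair of the knockout livers, and the difference of 1.03 (SE 0.52) did not pass (adjusted p = 0.192). Ifit3 was alike, with a difference of 0.72 (adjusted p = 0.258).

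Of the Gbp and Irg GTPases, which act on vacuoles holding intracellular pathogens, 1 of 5 was called. Gbp2 was at 6.58, 7.24 and 7.22 in knockout livers and 5.14, 5.71 and 5.52 in livers labelled control. It was 2.95-fold higher (log2 difference 1.56, SE 0.21, adjusted p = 0.00141), the largest difference among the called members. Gbp3 did not overlap either, at 6.75 to 6.83 against 5.84 to 6.67, but narrowly missed the threshold (adjusted p = 0.0576). Gbp7, Irgm1 and Iigp1 differed by 0.42, 0.40 and 0.08 and were not called. The class medians were 1.12 for Oas and Ifit and 0.42 for Gbp and Irg. No test of the difference between classes was made, since the members were chosen with results known. With each array centred on its median gene, which moves the median of all genes to −0.37, the class medians became 0.80 and 0.09, 15 members were called, and 35 of the 47 differences were positive. The calls over all genes were then 1570 higher and 8942 lower, against 2562 and 1486 as deposited and 2122 and 2417 after quantile normalisation. Without control replicate 2 the Gbp and Irg median was 0.64.

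Other called members spanned the response. Irf7, the transcription factor that amplifies type I interferon, was at 9.33, 8.87 and 9.04 in knockout livers, against 7.31, 8.12 and 7.29 in livers labelled control (log2 difference 1.51, adjusted p = 0.00245). Irf1, the factor most tied to interferon gamma, rose by 0.66 (adjusted p = 0.00685), whereas Stat2 (0.21) and Irf9 (0.19) were not called. The antigen-processing genes Tap1, a peptide transporter, and Psmb8, an immunoproteasome subunit, rose by 0.69 and 0.59. Usp18, which removes Isg15 and damps Ifnar signalling, was at 8.10, 7.58 and 7.59 against 5.60, 7.47 and 5.68 (log2 difference 1.51, adjusted p = 0.0406). Its partner Isg15, a ubiquitin-like modifier, differed by 0.43 with overlapping groups and was not called. The antiviral GTPase Mx1 (0.60), the nucleic acid sensor Zbp1 (1.11), Trim30a (0.93), Sp100 (0.72), a nuclear body protein, Xaf1 (1.28), a pro-apoptotic factor, Phf11a (1.14) and the secreted glycoprotein Lgals3bp (0.96) completed the called set. Mx2 (0.23), Rsad2 (0.72) and Cmpk2 (−0.11) were not called.

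One liver weighed on this comparison. Control replicate 2 was the highest of its group in 45 of 47 members, against 37.68% of all genes. Its mean over the Oas and Ifit genes was 6.16, while the other control livers stood at 5.11 and 5.22 and the knockout livers at 6.45 to 6.99. Without it 29 members were called, 17 of them among the 18, and leaving out each of the other livers gave 12 to 16. Gbp2, Irf1, Irf7, Lgals3bp, Oas1a, Oas2, Oas3, Oasl2, Phf11a, Tap1 and Trim30a were called in all 6 such fits. Calls of the other 7 were lost in at least 1 fit, and those of Usp18 and Mx1 in 5 of 6.

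Markers of several other cell types moved with these genes, where 13.6% of all genes were called higher and 7.9% lower. All 6 leukocyte markers, among them Ptprc, were called higher at 52 weeks, with a mean level of 7.96 to 8.11 in knockouts against 6.08 to 7.05 in livers labelled control. Of the macrophage and Kupffer cell markers 9 of 12 were higher, of the T and NK cell markers 5 of 12, of the plasmacytoid dendritic cell markers 2 of 6 and of the cholangiocyte markers 7 of 7. Of the conventional dendritic cell markers 2 of 7 were higher, of the B and plasma cell markers 3 of 6 and of the neutrophil markers 1 of 7. Of the hepatocyte markers 0 of 8 were higher and 1 lower, and of the sinusoidal endothelium markers 0 of 6 and 1. In whole liver, more cells of a type and more RNA per cell cannot be told apart, and the part of these cells in the members' rise was not tested. Control replicate 2 had a leukocyte mean of 6.97, between the other control livers.

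**Figure D2:**
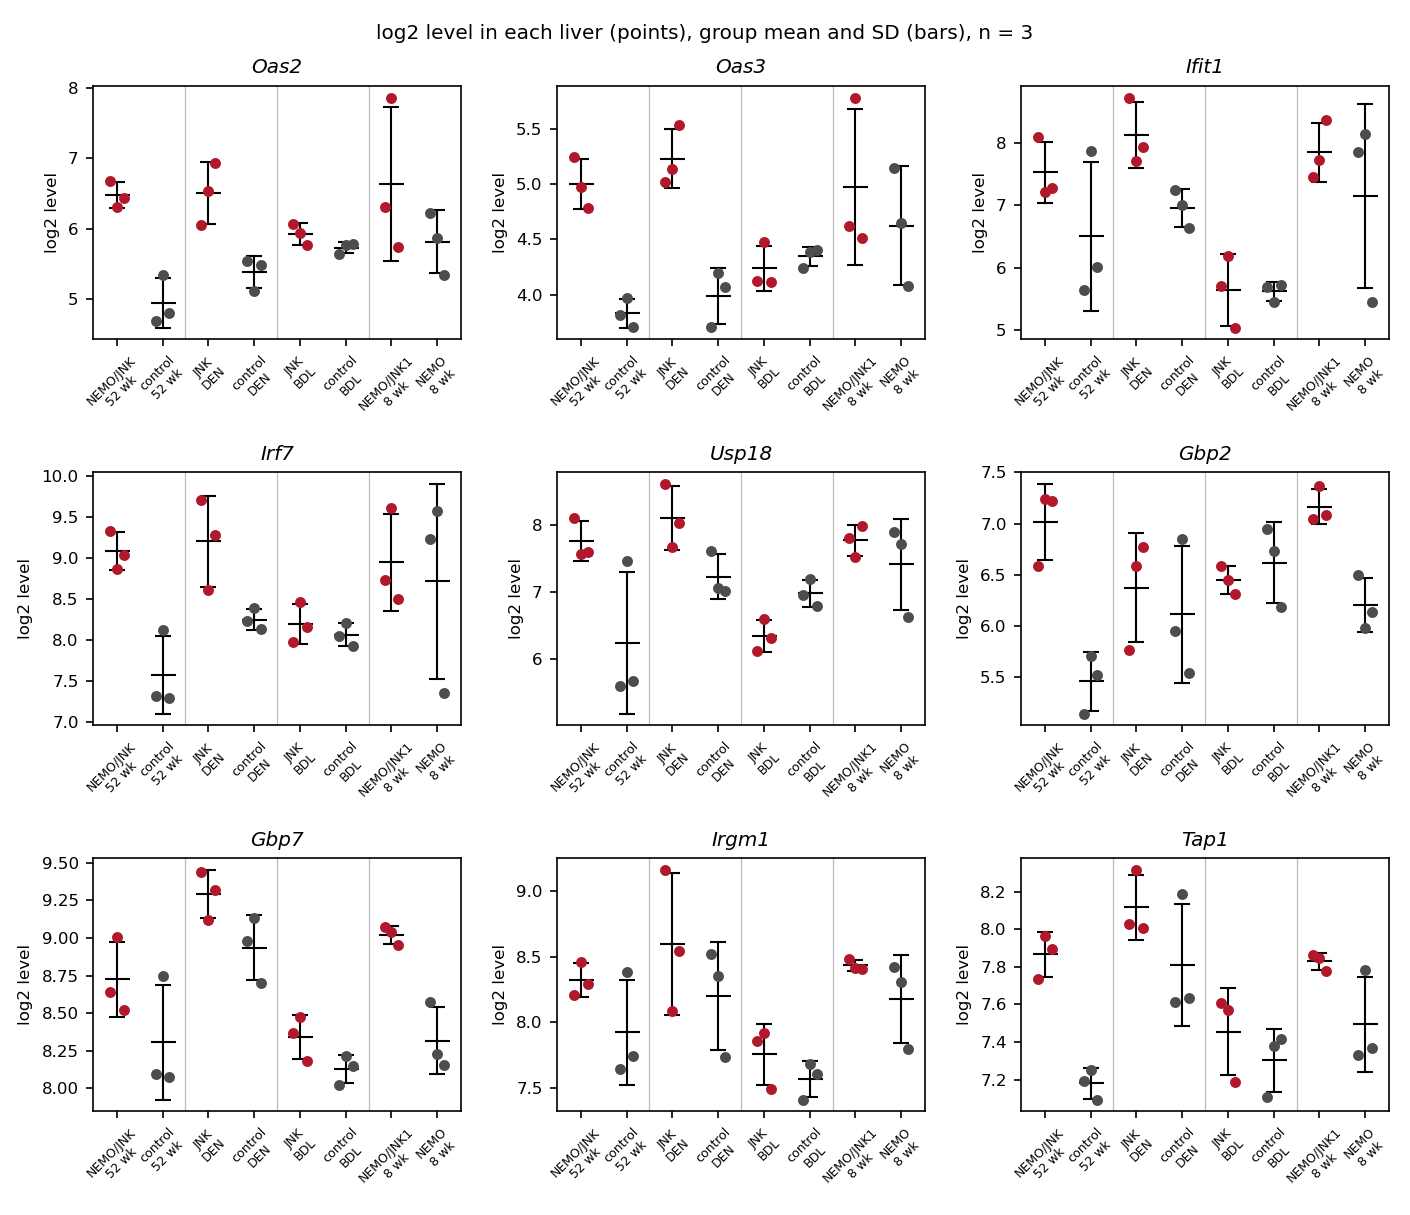
log2 level (y axis) of 9 members in each liver (points) by group (x axis), with group mean and SD (bars, n = 3); knockouts or double knockouts are red and their comparison group grey. For Oas2, Oas3, Irf7 and Tap1 all 52-week knockout livers lie above all control livers, whereas for Ifit1 control replicate 2, at 7.88, lies within the knockout range of 7.22 to 8.10.

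After DEN no member was called in either direction, in a comparison in which 0 of 18820 genes were called (0%). At an unadjusted p under 0.05, 19 of 47 members were higher in JNK knockouts (1.45% of all genes) and 0 lower (2.7%). All 3 knockout livers stood above all 3 control livers for 20 members (3.26% of all genes) and below for 0 (6.21%). The members' median difference was 0.56, against −0.02 over all genes, and 45 of 47 differences were positive (45.1% of all genes). The count of 19 became 31 without JNK knockout replicate 2 and 15 to 20 without each of the other livers.

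Of the Oas and Ifit genes, 7 of 8 were separated between the groups and their median was 0.91. Of the Gbp and Irg genes 0 of 5 were separated and their median was 0.36, which became 0.16, with 3 of 5 positive, without control replicate 3. The difference between the classes was not tested. Oas3 was at 5.02, 5.14 and 5.54 in JNK knockouts, against 3.71, 4.20 and 4.07 in livers labelled control (log2 difference 1.24, SE 0.19, adjusted p = 0.985). Oas2 was at 6.06, 6.54 and 6.93 against 5.53, 5.12 and 5.48 (1.13, SE 0.24, adjusted p = 0.985). All livers of these genes were ordered by genotype, yet neither passed limma's adjustment over 18820 genes. Ifit1 was at 8.73, 7.72 and 7.94 in JNK knockouts and 7.24, 7.01 and 6.63 in livers labelled control, again without overlap (1.17, SE 0.29). Phf11a had the smallest p, at 5.02, 5.33 and 4.996 against 3.98, 3.83 and 3.75 (1.26, SE 0.14, adjusted p = 0.883). Trim30a (0.82) and Ifi44l (0.86) followed, also without overlap.

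Irf7 was at 9.71, 8.61 and 9.28 after DEN in JNK knockouts, against 8.22, 8.38 and 8.13 in livers labelled control, and Usp18 at 8.62, 7.68 and 8.04 against 7.62, 7.06 and 7.02. Isg15 showed the same order, at 7.45, 6.12 and 6.39 against 5.88, 5.89 and 5.55. The interferon gamma class overlapped: Gbp2 was at 5.77, 6.58 and 6.77 in JNK knockouts and 5.95, 6.85 and 5.54 in livers labelled control (0.26, 95% interval −0.66 to 1.18). Irgm1 (0.40), Gbp3 (0.71) and Irf1 (−0.02) overlapped too. The interval of Gbp2 still includes differences as large as that of Oas2.

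Markers of other cells also lay mostly on the positive side after DEN. Sinusoidal endothelium markers did not: 0 of 6 differences were positive and their median was −0.27. Nor did hepatocyte markers, with 2 of 8 positive and a median of −0.07. Conventional dendritic cell and neutrophil markers each had 6 of 7 positive, with medians of 0.56 and 0.39. Of the plasmacytoid dendritic cell markers 4 of 6 were positive, with a median of 0.04. Leukocyte markers had a mean level of 6.87, 9.02 and 8.14 in JNK knockouts 1 to 3, against 7.00 to 7.33 in livers labelled control; 0 of 6 were called, 6 of 6 differences were positive and their median was 0.86. The 6 B and plasma cell markers were all positive too, with a median of 1.05 and 2 at an unadjusted p under 0.05, and 6 of 7 cholangiocyte markers were positive, with a median of 1.24. Knockout replicate 1, with the lowest leukocyte mean, was the highest of its group for 24 of 47 members (38.92% of all genes). It was the lowest for 12 (32.61%), among them Oas2, Oas3, Mx1 and Gbp2. Knockout replicate 2, with the highest leukocyte mean, was the highest for 6 members (34.15% of all genes) and the lowest for 29 (40.71%). The part of these cells in the members' values was not tested. Macrophage and Kupffer cell markers averaged 8.41 to 9.55 in JNK knockouts and 8.45 to 8.92 in livers labelled control, and T and NK cell markers 4.21 to 4.63 and 3.91 to 4.73. The members separated upward both here and at 52 weeks, in comparisons with no liver in common, were 12 of 47, against 214 of all 18820 genes (1.137%). They were Irf7, Lgals3bp, Mx1, Oas1a, Oas2, Oas3, Oasl2, Phf11a, Sp100, Trim30a, Usp18 and Xaf1. None of these is a Gbp or Irg gene, which follows from the 0 of 5 separated after DEN and adds nothing to it.

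**Figure D3:**
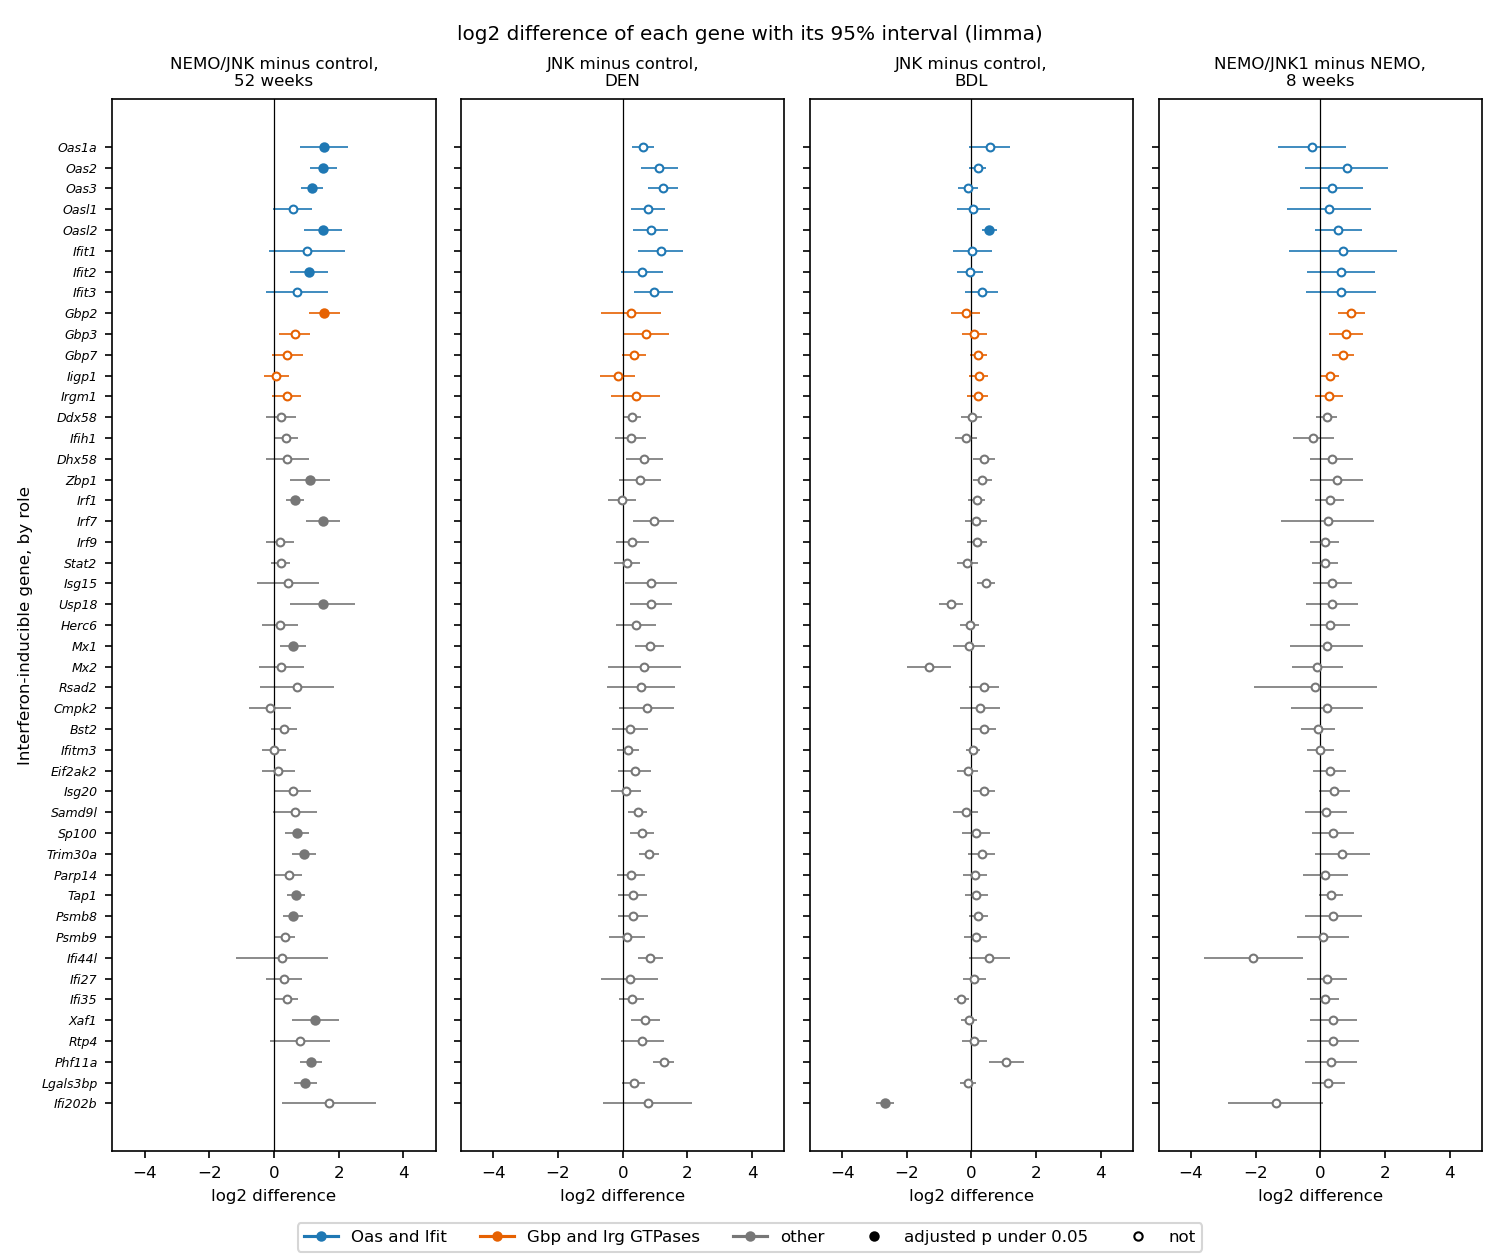
log2 difference of each of the 47 genes (points) with its 95% interval (lines) in 4 comparisons (panels), coloured by class; filled points have a limma adjusted p under 0.05. At 52 weeks 18 points are filled and 46 of 47 lie to the right of 0, after DEN 45 of 47 do with none filled, and after BDL most lie near 0 with Oasl2 and Ifi202b filled.

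After BDL 1 member rose and 1 fell in JNK knockouts, where 0.797% of all genes were called higher and 0.558% lower. Oasl2 was at 6.50, 6.67 and 6.59 in JNK knockouts, against 6.06, 5.99 and 6.07 in livers labelled control (log2 difference 0.55, SE 0.10, limma adjusted p = 0.0463). Ifi202b fell by 2.68 (SE 0.12, adjusted p = 0.000174) and is described further on. The median difference was 0.13 over all members, 0.13 for Oas and Ifit and 0.19 for Gbp and Irg. Of the 47 differences 32 were positive (49.6% of all genes), which became 26 without JNK knockout replicate 2 and 27 without control replicate 2; the Oas and Ifit median was then 0.01 and 0.09, against 0.30 and 0.26 without knockout or control replicate 3, and the Gbp and Irg median was 0.11 without JNK knockout replicate 2 or control replicate 1. At an unadjusted p under 0.05, 7 members were higher (7.68% of all genes) and 4 lower (6.93%). By liver, 6 members were separated upward (9.95% of all genes) and 4 downward (10.7%), shares near those of all genes.

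Single members went opposite ways. Phf11a was at 4.71, 4.54 and 4.74 in JNK knockouts, against 4.02, 3.02 and 3.73 in livers labelled control (1.07, adjusted p = 0.0833). Mx2, an antiviral GTPase, was at 4.998, 5.37 and 4.20 against 6.18, 6.48 and 5.83 (−1.31, adjusted p = 0.0924), and Usp18 at 6.12, 6.61 and 6.31 against 6.95, 7.20 and 6.80 (−0.64, adjusted p = 0.114). Isg15, at 5.32 to 5.55 against 4.88 to 5.18, lay above while Usp18, which removes it from proteins, lay below. Ifit1 (5.04 to 6.18 against 5.45 to 5.72), Irf7 (7.97 to 8.46 against 7.93 to 8.21), Gbp2 (6.31 to 6.58 against 6.18 to 6.95) and Irgm1 (7.49 to 7.92 against 7.41 to 7.68) overlapped.

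Mouse identifiers of BDL control replicates 1 and 2 begin with another prefix than those of replicate 3 and all the knockouts. This prefix is called the identifier series here, and the labels do not say what it stands for. With that series as a block, where only control replicate 3 is compared with knockouts of its own series, Oasl2 was no longer called (adjusted p = 0.189), Ifi202b kept its call (−2.62, adjusted p = 0.00388) and the Oas and Ifit median was 0.01, with 24 of the 47 differences positive. Leaving out 1 liver ended the Oasl2 call in 5 of 6 fits. Leukocyte markers averaged 7.95 to 8.08 in JNK knockouts and 7.46 to 7.90 in livers labelled control, with 0 of 6 called. At an unadjusted p under 0.05, 3 of these 6, 5 of 7 neutrophil and 3 of 7 cholangiocyte markers were higher (7.68% of all genes). Hepatocyte and plasmacytoid dendritic cell markers had 0. All 7 cholangiocyte differences were positive, with a median of 0.82. Of the macrophage and Kupffer cell markers 1 of 12 was called higher, and of the conventional dendritic cell markers 1 of 7 (0.797%). Of the sinusoidal endothelium markers 1 of 6 was called lower (0.558%). The part of these cells in the members' values was not tested.

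At 8 weeks no member was called between livers labelled NEMO/JNK1 and livers labelled NEMO, nor was any gene (0%). At an unadjusted p under 0.05, 4 members were higher (3.48% of all genes) and 1 lower (4.19%). All 4 were Gbp or Irg GTPases. Gbp2 was at 7.05, 7.36 and 7.08 in NEMO/JNK1 livers, against 6.49, 5.98 and 6.13 in NEMO livers (log2 difference 0.96, SE 0.17, limma adjusted p = 0.544). Gbp7 was at 9.07, 9.04 and 8.95 against 8.57, 8.23 and 8.15 (0.70, adjusted p = 0.544), and Gbp3 at 7.18, 7.51 and 7.33 against 6.89, 6.67 and 6.08 (0.80, adjusted p = 0.602). Iigp1, an Irg GTPase, was at 10.08 to 10.25 against 9.84 to 9.94 (0.30, adjusted p = 0.626). These 4 were the only members separated upward (6.71% of all genes), and they make up 4 of the 5 measured members of their class. Other interferon gamma genes did not share this. Of 17 other listed interferon gamma targets 1 was separated upward, with a median of 0.19. Of 19 other type I targets 1 was too, with a median of 0.22. Of the 3 antigen-processing members 0 were, with a median of 0.335.

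The Oas and Ifit genes spread too widely at 8 weeks to be ordered. Oas2 was at 6.30, 7.86 and 5.74 in NEMO/JNK1 livers and 6.23, 5.87 and 5.34 in NEMO livers (0.82, 95% interval −0.46 to 2.10). Ifit1 was at 7.46, 7.73 and 8.37 against 7.85, 8.15 and 5.45 (0.70, interval −0.97 to 2.37). NEMO replicate 3 was the lowest of its group in 41 of 47 members, against 37.68% of all genes. Without it the Oas and Ifit median was 0.11 in place of 0.59, while the Gbp and Irg median was 0.56 in place of 0.70, and the median over all 47 members was 0.07 in place of 0.29. The Oas and Ifit median was 0.24 without NEMO/JNK1 replicate 2 and 0.31 with array weights. Ifi44l was lower, at 2.74, 3.41 and 3.45 against 6.48, 5.53 and 3.80 (−2.07, adjusted p = 0.602), and was the 1 member separated downward (7.66% of all genes).

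The groups at 8 weeks had mouse identifiers of different series, so that series and genotype cannot be told apart. Leukocyte markers averaged 7.26 to 8.85 in NEMO/JNK1 livers and 7.00 to 7.48 in NEMO livers, with 0 of 6 called, and macrophage and Kupffer cell markers 7.80 to 10.79 and 8.38 to 8.83. T and NK cell markers averaged 4.22 to 4.72 in NEMO/JNK1 livers and 3.94 to 4.53 in NEMO livers. Differences were positive for 6 of 6 leukocyte (median 0.84) and 12 of 12 macrophage and Kupffer cell markers (0.70), against 49.4% of all genes. So were 10 of 12 T and NK cell (0.39) and 6 of 7 neutrophil markers (0.91). Only 3 of 8 hepatocyte (−0.03), 1 of 6 plasmacytoid dendritic cell (−0.42) and 2 of 6 sinusoidal endothelium markers (−0.18) were positive. Of the T and NK cell markers 4 of 12 were separated upward (6.71% of all genes) and 1 downward (7.66%). The part of these cells in the Gbp values was not tested. The class means by liver place the groups side by side: the Gbp and Irg shift was 0.58, 0.65 and 0.58 in NEMO/JNK1 livers and −0.23 to 0.23 in NEMO livers, whereas the Oas and Ifit shift was 0.10, 0.89 and 0.40 against −0.84 to 0.47.

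**Figure D4:**
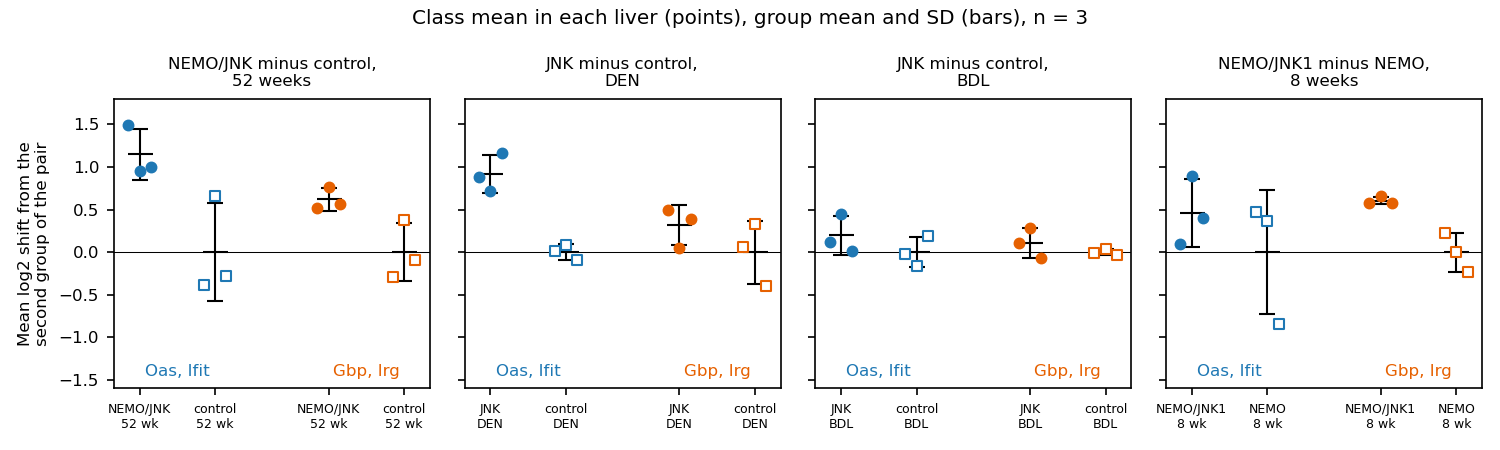
Mean log2 shift of the 8 Oas and Ifit genes (blue) and the 5 Gbp and Irg genes (orange) in each liver, relative to the mean of the second group of each pair; points are livers, bars the group mean and SD (n = 3), filled circles the first group and open squares the second. After DEN the Oas and Ifit shifts of the JNK livers (0.72 to 1.16) lie clear of those of the control livers (−0.10 to 0.08), and at 8 weeks the Gbp and Irg shifts do (0.58 to 0.65 against −0.23 to 0.23). At 52 weeks the shifts of both classes do. They are 0.95 to 1.49 against −0.38 to 0.66 for Oas and Ifit and 0.52 to 0.77 against −0.29 to 0.38 for Gbp and Irg.

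Whether the difference between JNK knockout livers and livers labelled control was another after BDL than after DEN was tested as an interaction over 12 livers. No member was called (0.0213% of all genes higher, 0.0266% lower). At an unadjusted p under 0.05, 0 members were higher (4.38% of all genes) and 13 lower (2.73%), a negative value meaning a smaller or more negative JNK difference after BDL. The median was −0.69 for Oas and Ifit and −0.21 for Gbp and Irg, against 0.01 over all genes. The Gbp and Irg median ranged from −0.35 without control DEN replicate 1 to −0.03 without control DEN replicate 3, and was −0.07 without JNK knockout BDL replicate 3 or JNK knockout DEN replicate 1. Oas3 had an interaction of −1.35 (SE 0.24, limma adjusted p = 0.135) and Usp18 of −1.51 (SE 0.34, adjusted p = 0.257). Usp18 was the 1 member separated upward after DEN (3.26% of all genes) and downward after BDL (10.7%). The share of all genes with both was not counted. Xaf1 (−0.78) and Oas2 (−0.94) had adjusted p-values of 0.459 and 0.514. With array weights 4 members, Oas3, Ifi202b, Usp18 and Xaf1, were called lower. Over all 18820 genes that fit called 35 higher and 33 lower, against 4 and 5 in the main fit.

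Between livers labelled control, 6 members were lower after BDL than after DEN (0.739% of all genes) and 1, Ifi202b, was higher (1.74%). At an unadjusted p under 0.05, 16 were lower (8.49% of all genes) and 4 higher (10.7%). Ifit1 was at 5.69, 5.45 and 5.72 after BDL, against 7.24, 7.01 and 6.63 after DEN, a fall of 1.34 (SE 0.17, limma adjusted p = 0.0155). Ifi27 fell by 1.25, Ifit3 by 1.03, Iigp1 by 0.85, Gbp7 by 0.81 and Isg15, at 4.88 to 5.18 against 5.55 to 5.89, by 0.78. Each class contributed 2 of the 6, with class medians of −0.32 for Oas and Ifit and −0.64 for Gbp and Irg. Oas2 (0.35) and Oas3 (0.35) lay on the other side of 0 and were not called. The injury, the time after it and, for a pair of the BDL controls, the identifier series differed together. With the series as a block 0 members were called lower, and leaving out 1 liver left 0 to 6. Control BDL replicate 1, control BDL replicate 2 and each DEN control, left out in turn, reduced the count to 2 or fewer.

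The interferon ligands were dim. Ifnb1, the interferon beta gene, ranged from 2.53 to 2.81 in NEMO/JNK knockouts at 52 weeks and from 2.82 to 3.59 in livers labelled control, and Ifng from 3.32 to 3.76 and 3.13 to 3.61. Over all 24 livers Ifng lay between 3.05 and 3.84. These values lie below the medians of all probe sets on the arrays (4.52 to 4.66), with no detection call beside them. Of 13 measured type I and III ligands 0 rose and 3 fell at 52 weeks (Ifna16, Ifnab and Ifna14, by 0.55, 0.71 and 0.54), and their higher group means were 4.36, 3.75 and 3.97.

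At 52 weeks, where 13.6% of all genes were called higher and 7.9% lower, 4 of 6 receptors rose: Ifngr1 was at 8.63, 8.83 and 8.86 in knockouts, against 7.55, 7.76 and 7.35 in livers labelled control (log2 difference 1.22, limma adjusted p = 0.000638). Il10rb, shared by interferon lambda and interleukin 10 receptors, rose by 1.13, Ifnlr1 by 0.79 and Ifngr2 by 0.46. Of the transducers 1 of 5 rose, Stat4 (1.40), which acts downstream of interleukin 12. Of the genes that sense nucleic acids or bacterial products and induce interferon, 6 of 13 rose and 1 fell, with a median of 0.26. Aim2, a cytosolic DNA sensor, rose by 1.55, Tlr4 by 1.13 and Irf8, a factor of myeloid cells, by 1.23, and Mavs, the adaptor of the RNA sensors, fell by 0.71. Several of these are typical leukocyte genes, and the leukocyte markers moved with them as given above.

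Of the other listed targets 8 of 19 type I genes and 4 of 17 interferon gamma genes rose at 52 weeks and 0 fell, together with 4 of 10 negative regulators, beside the same shares of all genes (13.6% higher, 7.9% lower). Over all 88 measured pathway genes that are not members, 27 rose and 4 fell, with a median of 0.19. None of the 88 was called after DEN, where 8 were higher (1.45% of all genes) and 3 lower (2.7%) at an unadjusted p under 0.05, and none at 8 weeks, where 9 were higher (3.48%) and 2 lower (4.19%). After BDL 1 of the 88 rose, where 0.797% of all genes were called higher. It was Cxcl9, a chemokine induced by interferon gamma. Cxcl9 was at 8.69, 9.31 and 8.66 in JNK knockouts, against 7.40, 7.63 and 7.64 in livers labelled control (log2 difference 1.33, limma adjusted p = 0.0176). Whether this call holds with the identifier series as a block was not examined. The measured Gbp and Irg genes, also interferon gamma targets, differed by −0.17 to 0.22 in that comparison. Between livers labelled control, 2 of the 88, Ifngr2 (0.71) and Tlr7 (0.87), were called higher after BDL than after DEN (1.74% of all genes).

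Ifi202b took either a low or a high value liver by liver. This gene, a DNA-binding protein of the Aim2-like family whose expression is known to differ between mouse strains, had the lowest mean over the 24 arrays (3.12). It was at 2.25, 2.24 and 2.19 after BDL in JNK knockouts, against 4.76, 5.11 and 4.85 in livers labelled control. In the other groups single livers stood apart. NEMO/JNK knockouts at 52 weeks were at 5.31, 2.21 and 4.51, against 2.17 to 2.53 in livers labelled control. JNK knockouts after DEN were at 2.37, 2.40 and 4.60, against 2.13 to 2.64 in livers labelled control. At 8 weeks NEMO/JNK1 livers were at 2.16 to 2.58 and NEMO livers at 4.53, 4.40 and 2.14. No liver had a value between 2.64 and 4.40. Both kinds of value occurred within the 52-week knockouts, the JNK knockouts after DEN and the NEMO livers, while after BDL the values split fully by genotype.

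Ifi44l had the widest range of group means, from 3.20 in NEMO/JNK1 livers at 8 weeks to 6.43 in JNK knockouts after DEN. Single livers of other groups were low too: 3.56 in 52-week knockout replicate 3, 4.002 in control replicate 3 and 3.80 in NEMO replicate 3. Phf11a lay higher in livers labelled NEMO/JNK or JNK knockout than in livers labelled control at 52 weeks, after DEN and after BDL. These groups did not overlap, where 20.9%, 3.26% and 9.95% of all genes were separated upward. At 8 weeks Phf11a overlapped, at 4.47, 5.47 and 4.42 in NEMO/JNK1 livers and 4.89, 4.41 and 4.07 in NEMO livers (log2 difference 0.33, adjusted p = 0.811). Its only call is at 52 weeks. Phf11a, Oas3, Mx1 and Ifi202b are dim, with a mean under 5 over all arrays, and Phf11a, Trim30a, Oas1a and Ifit3 have close paralogs whose transcripts may share probes.

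**Figure D5:**
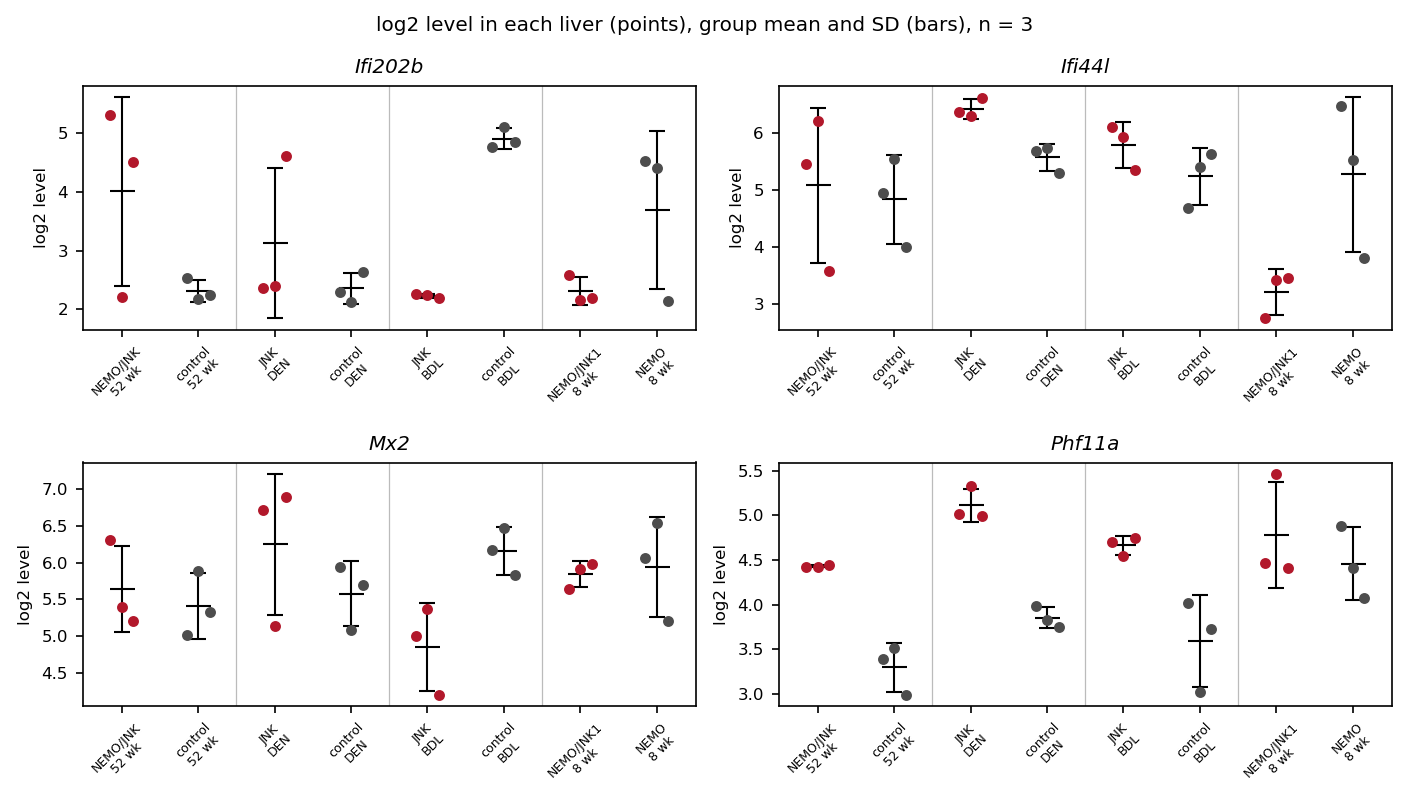
log2 level (y axis) of Ifi202b, Ifi44l, Mx2 and Phf11a in each liver (points) by group (x axis), with group mean and SD (bars, n = 3). Ifi202b falls into livers at 2.13 to 2.64 and livers at 4.40 to 5.31, and Ifi44l is lowest in the NEMO/JNK1 livers (2.74 to 3.45). Phf11a separates livers labelled NEMO/JNK or JNK knockout from those labelled control at 52 weeks, after DEN and after BDL but overlaps at 8 weeks.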

How the data were processed

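The authors deposited log2 values for each of 35556 probe sets on 24 arrays, and the submitters' processing notes name RMA, which corrects background, normalises probe quantiles between arrays and summarises probe sets. Which program and chip definition were used is not stated in these sources. The values ran from 0.68 to 13.48, with no detection call, and precision is set by the small number of arrays. A total of 21218 probe sets carried 1 symbol, 1881 several and 12457 none. Entrez identifiers of 21185 matched the GRCm38.p6 RefSeq gene table. For the 1386 genes with several probe sets, the one with the highest mean over 24 arrays was used.

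Each comparison was fitted on its own 6 arrays, and the interaction on 12, with limma 3.58.1 in R 4.3.3 over all 18820 genes without a filter. Tests were two-sided, with Benjamini-Hochberg adjustment and a threshold of 0.05. An exact permutation test of 3 against 3 livers cannot go below p = 0.1, so none was used. The procedure was also run on simulated arrays with independent noise in each gene. Such noise leaves out members moving together within a liver, and the detection rates are not reported here. Members, classes, pathway lists and marker lists were chosen with earlier results of these data known, so that no list was tested.

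The text names Mapk8, Mapk9 and Ikbkg, the called members of each comparison up to 20 by smallest p (or, with fewer than 5 called, the 5 with the smallest unadjusted p), fixed examples of each class in levels, the members with the highest level, the lowest level and the widest range, and up to 6 called pathway genes a comparison. Other members, listed with their values, were named after their values were seen. Promoters are RefSeq windows from GRCm38.p6, matched by symbol. Alternatives were other normalisations, a filter on means under 5, all arrays in 1 fit, array weights, averaged probe sets and a variance trend. Further ones were replicate number, mouse number range or identifier series as a block, and each liver left out. Same-numbered livers deviated together with r of 0.017 to 0.036 at 52 weeks, 0.045 to 0.359 after DEN, −0.069 to 0.136 after BDL and −0.067 to 0.012 at 8 weeks, so that the numbers were not taken to pair them.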

Additional observations from a re-analysis of the deposited data

How the results depend on the processing

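With the livers of the 52-week comparison left out in turn, 12 to 29 members were called higher, the last without control replicate 2, and 0 lower in each. Centring the arrays moved the 52-week Gbp and Irg median to 0.0914. Array weights moved the Oas and Ifit median after DEN to 1.14, and that at 8 weeks to 0.31. After BDL the count of higher members was 0 with centred arrays, with all 24 arrays in 1 fit and when blocking on identifier series. It was 0 to 1 with a liver left out. The count of lower members was 0 with dim genes left out, which drops Ifi202b from the fit, and 0 with all 24 arrays. Between livers labelled control, BDL minus DEN, the higher count was 0 with dim genes left out. The lower count was 3 with all 24 arrays, 0 with the identifier series as a block and 0 to 6 with a liver left out. The Oas and Ifit median there was −0.48 with dim genes left out and −0.18 with the series as a block. The interaction gave 4 lower members with array weights, where 33 of all 18820 genes were called lower. With a liver left out it gave 0 to 1, the 1 being Ifi202b without JNK knockout DEN replicate 3. The Oas and Ifit median of the interaction was −0.87 with array weights, −0.91 with the series as a block and −0.88 to −0.56 with a liver left out. With a liver left out, the Gbp and Irg median was 0.16 to 0.47 after DEN and −0.35 to −0.03 in the interaction, and the Oas and Ifit median at 8 weeks was 0.11 to 0.84. The series block for the interaction and for the livers labelled control was added after seeing the data. No alternative turned a direction of a called value. Except where an alternative itself drops genes or livers, the cause was not tested.

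The replicate block left 19 members called at 52 weeks, 0 higher and 2 lower after BDL, and 1 lower between livers labelled control. At 52 weeks 6 of 6 livers correlated best with their own number, after DEN 4 of 6, after BDL 3 of 6 and at 8 weeks 0 of 6. Signal limits the dim genes: 4 members have means under 5, where no detection call tells signal from background.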
